A study of Homo sapiens with 6 samples.

Results

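The endothelin system was taken as 7 genes, namely those of the endothelin peptides (EDN1, EDN2 and EDN3), the receptors ETA and ETB (EDNRA and EDNRB) and the converting enzymes ECE1 and ECE2. They were found by gene symbol among probe sets, groups of array probes that are read out as 1 value, that carried a single symbol. Of the 7 genes, 6 were matched to 1 probe set each, out of 18417 genes in all, and EDNRA was not analysed here. EDN1 was selected on its rise between the same groups compared here, one of the largest of all genes, so its values are a description and carry no test. Its relatives came in through their family and not through their values.

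The RNA came from PC3 cells, an androgen-independent prostate cancer line, which had been transfected with a miR-205 mimic (n = 3 arrays) or with a negative control mimic (n = 3 arrays). A mimic is a short synthetic RNA that is loaded like a natural microRNA, and each group was described by the submitters as biological triplicates. In both groups RNA was recovered with the antibody 11A9 against AGO2, the effector protein in which a microRNA pairs with mRNAs, and was labelled for Affymetrix gene arrays. The stated aim was to find targets of miR-205. No input RNA was analysed here, so in these bulk precipitates a change in binding to AGO2, in transcript per cell and in the number of cells that carry a transcript cannot be told apart.

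Endothelins are short peptides that are cut from longer precursors, first by furin-type proteases and then by endothelin converting enzymes. They act through ETA and ETB, G protein-coupled receptors that raise calcium and activate protein kinase C. Endothelin-1 is best known as the vasoconstrictor of the vessel wall, and prostate cancer cells also make it. Its gene is switched on quickly by stress and inflammatory signals, through AP-1, GATA, SMAD, hypoxia and NF-kappa-B inputs, and its mRNA is short-lived.

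The transfected microRNA and the promoter of EDN1 are shown because they are the perturbation and the control region of the selected member. The mature miR-205-5p sequence in RefSeq (GRCh38.p14, chr1:209432166-209432187, plus strand) follows with its seed, bases 2 to 8, in capitals.
hsa-miR-205-5p: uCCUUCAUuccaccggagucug

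RefSeq gave 3 start sites for EDN1. The 250 bases upstream of the only one with a TATA box follow (GRCh38.p14, chr6:12290111-12290360, plus strand). From left to right the capitals mark a GATA motif (AGATAA on the minus strand), the core of a hypoxia response element (ACGTG on the minus strand), the AP-1-type motif TGACTAA and the TATA box TATAAA.
EDN1 promoter: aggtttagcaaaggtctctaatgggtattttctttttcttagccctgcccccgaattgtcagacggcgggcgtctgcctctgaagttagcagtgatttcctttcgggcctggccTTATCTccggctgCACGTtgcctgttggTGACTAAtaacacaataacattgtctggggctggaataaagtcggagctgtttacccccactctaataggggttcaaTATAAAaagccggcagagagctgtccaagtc

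Counted from the start site, the GATA motif lay at -136 to -131, the hypoxia core at -123 to -119, the AP-1-type motif at -108 to -102 and the TATA box at -31 to -26. The 4 motifs did not overlap. On either strand, TGACTAA was present in 1.62% of 35116 such windows, AGATAA in 9.17%, ACGTG in 18.5% and TATAAA in 10.7%. The AP-1 consensus TGANTCA (6.57% of windows) and the NF-kappa-B consensus (5.21%) did not match any of the 3 EDN1 windows.

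Comparisons between the groups used limma over all 18417 genes, with Benjamini-Hochberg adjustment and a threshold of 0.05, and values are log2 intensities. Negative control replicate 2 stood apart from the other control arrays. Of all genes, 49 were at least 1 higher there than the mean of the other control arrays and 3 at least 1 lower. For control replicate 1 against the other control arrays these numbers were 0 and 15, and for control replicate 3 they were 0 and 11. Results on EDN1 are therefore given with and without that array. A value of 6.04 was used as a gauge of dim signal, since 95% of 360 olfactory receptor genes lay below it on average. Of 7 measured epithelial markers 6 lay above this level, and 5 rose with miR-205 while 0 fell by limma (also 0 at an unadjusted p under 0.05), where 12.6% of all genes rose and 14.0% fell. Their part in the EDN1 result was not tested. Of 3 measured prostate luminal markers, KLK3 lay close to that level (5.98 to 6.18), KLK2 just above it (6.26 to 6.46) and HOXB13 far above it. HOXB13 fell by 0.73, from 12.62 ± 0.18 to 11.89 ± 0.03 (SD, n = 3 each, limma adjusted p = 0.000592).

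EDN1 was high in all miR-205 arrays and in 1 control array. It stood at 11.11, 11.12 and 10.85 with the miR-205 mimic, and at 6.04, 10.66 and 6.61 in control replicates 1, 2 and 3. The lowest miR-205 array lay just above control replicate 2 and far above the other controls, so the groups did not overlap. Control replicates 1 and 3 lay at or close to the dim level of 6.04.

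The mean of EDN1 was 11.03 ± 0.15 with miR-205 and 7.77 ± 2.52 with the control (SD, n = 3 each). The control mean falls in a gap between the control arrays and describes none of them. In the limma fit the difference was 3.26 ± 0.99 (log2, SE), a 9.55-fold ratio, with a 95% interval of 1.01 to 5.51. That fit draws the variance of each gene towards that of the other genes. For EDN1 the SE and interval are therefore narrower than the spread of its own arrays alone would give. Only 1 other gene had a larger spread among the controls, and EDN1 also ranked second of 18417 genes by the size of its rise.

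Without control replicate 2 the difference of EDN1 was 4.70 (26-fold), with the other controls near the dim level. Against those same controls, control replicate 2 was itself higher by 4.33 (20.1-fold). Its EDN1 signal lay at a share of 0.921 of the distance between them and the miR-205 mean. The remaining gap from control replicate 2 to the miR-205 mean was 0.37 (1.29-fold). Both distances share the same 2 control arrays as their base. Over the 143 genes whose miR-205 mean was higher than those arrays by at least 1, the median of this share was 0.37, and 25 genes, EDN1 included, reached at least the share of EDN1. Leaving out any 1 of the other 5 arrays gave a difference of 2.39 to 3.34.

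The other ligand genes showed no such pattern. EDN2 stood at 7.54, 7.56 and 7.42 with miR-205 and at 7.45, 7.25 and 7.33 with the control. Its difference was 0.16 ± 0.07 (SE, n = 3 per group), and the groups overlapped (limma adjusted p = 0.136). EDN3, the ligand that acts with ETB in neural crest development, stood at 6.29, 6.21 and 6.46 with miR-205 and at 6.36, 6.27 and 6.32 with the control. Its difference was -0.004, with a 95% interval of -0.18 to 0.17 (limma adjusted p = 0.979). EDN3 lay close to the dim level in all arrays, so a change of its transcript could be missed. In control replicate 2, EDN2 was lower than the mean of the other controls by 0.14 and EDN3 by 0.07, against the 4.33 by which EDN1 was higher.

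**Figure D1:**
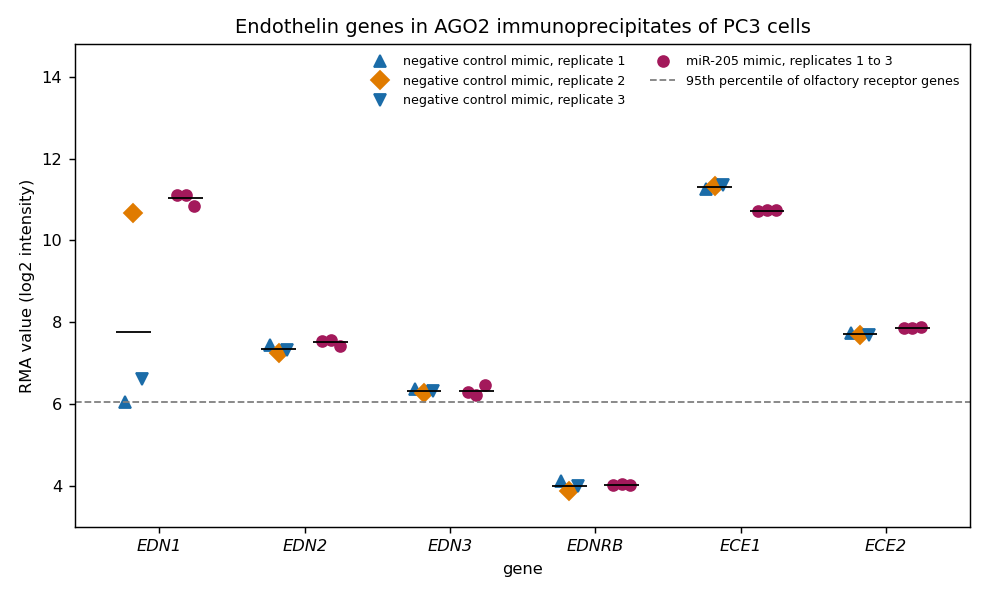
Log2 RMA values of the 6 measured endothelin genes in each array, with negative control replicates 1 to 3 as triangles and a diamond, miR-205 replicates as circles and black lines at the group means. EDN1 in control replicate 2 (10.66) sits near the miR-205 arrays and not near the other controls (6.04 and 6.61), while no other member sets that array apart; the dashed line marks 6.04, the level that 95% of olfactory receptor genes stay under.

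The ETB receptor gene EDNRB was dim in all arrays. It read 4.03, 4.04 and 4.01 with miR-205 and 4.11, 3.88 and 4.0 with the control, all under 6.04. A change of the receptor transcript could be missed at this signal level (difference 0.03, 95% interval -0.13 to 0.19, limma adjusted p = 0.792). With ETA not analysed here and ETB dim, these arrays give no reading of a receptor transcript above background.

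The converting enzyme genes differed from each other. ECE1, the main enzyme that releases active endothelin-1 from its precursor, was bright and fell with miR-205. It read 10.73, 10.74 and 10.74 with the mimic and 11.25, 11.34 and 11.36 with the control. The difference was -0.58 ± 0.06 (SE, n = 3 per group, limma adjusted p = 0.000235), a ratio of 0.669, and the groups did not overlap. Control replicate 2 lay among the other controls for ECE1, and without it the difference was -0.57.

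ECE2, the related enzyme with an acidic optimum, read 7.87, 7.86 and 7.89 with miR-205 and 7.74, 7.69 and 7.69 with the control. The groups did not overlap, yet the difference of 0.16 ± 0.05 (SE, n = 3 per group) missed the threshold (limma adjusted p = 0.0562). It passed with dim genes filtered out (adjusted p = 0.0324) and with repeated quantile normalization (adjusted p = 0.0487). Of the 5 RefSeq transcripts listed for the ECE2 probe set, 3 belong to ECE2, 1 to the neighbouring gene EEF1AKMT4 and 1 to the read-through gene EEF1AKMT4-ECE2, so the reading may not be of ECE2 alone.

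In all, 2 of the 6 measured members passed in the fit, EDN1 upward and ECE1 downward, where 26.6% of all genes passed. The groups did not overlap for 3 of the 6, where this held for 42.2% of all genes. Nothing is read from these shares, since the contrast that chose EDN1 gave them.

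The genes whose pattern was most like that of EDN1 included 3 chemokine genes, CXCL1, CXCL2 and CXCL8. Likeness was Pearson's r of log2 values over the 6 arrays, among 348 protein-coding genes with a mean above 6.04 and a range of at least 1. It is a description with no test, since all genes share the arrays and the values fall into a low and a high set of arrays. The 8 highest were CXCL1 (r = 0.9989), CXCL2, PTGER4, CXCL8, NFKBIZ, PPP1R15A, ZFP36 and TNFAIP3 (r = 0.9959).

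CXCL1, a chemokine for neutrophils, read 13.06, 13.19 and 13.11 with miR-205 and 9.73, 12.94 and 10.12 in control replicates 1, 2 and 3. TNFAIP3, an inhibitor of NF-kappa-B signalling, read 10.86, 11.10 and 11.01 with miR-205 and 7.66, 10.96 and 7.87 in the controls. In CXCL1 control replicate 2 lay just below the miR-205 arrays, and in TNFAIP3 among them. PTGER4, a prostaglandin E2 receptor, read 10.45, 10.57 and 10.46 with miR-205 and 8.55, 10.44 and 8.70 in the controls. PPP1R15A, which relieves the stress block on translation, had the smallest step of the 8, with control replicate 2 higher than the other controls by 0.89 and the miR-205 mean by 0.95.

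For EDN1 and these 8 genes, control replicate 2 was higher than the other controls by 0.89 to 4.33. The NF-kappa-B consensus matched the 250 upstream bases of 5 of the 8 genes, CXCL1, CXCL2, PTGER4, NFKBIZ and TNFAIP3, where 6.28% of 27305 genes had a match in any of their windows. TGANTCA matched 1 of the 8, CXCL8, where 8.06% of genes had a match. Of the motifs in the EDN1 promoter, TGACTAA and AGATAA matched 0 of the 8. ACGTG matched 1, TNFAIP3, where 21.7% of genes had a match. TATAAA matched 3, CXCL8, NFKBIZ and PPP1R15A, where 13% of genes had a match. EDN1 itself had no NF-kappa-B match. The 8 genes were chosen on these same arrays, so nothing is read from these shares. These matches are letters in a window and no evidence of binding.

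**Figure D2:**
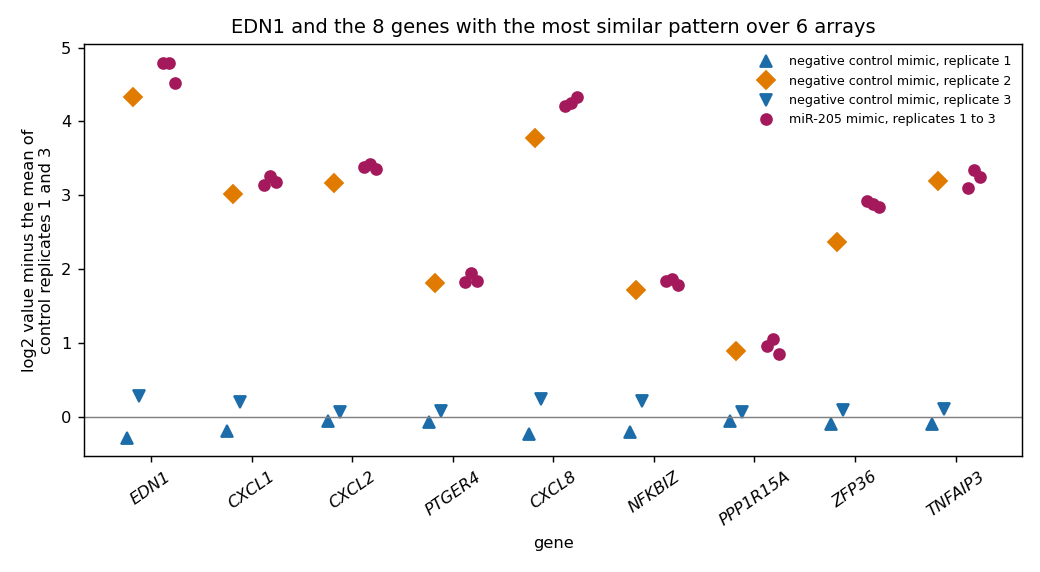
Log2 values of EDN1 and of the 8 genes most like it, each minus the mean of control replicates 1 and 3, in all 6 arrays; symbols as in the plot of the endothelin genes. In each of the 9 genes control replicate 2 (diamond) lies near the miR-205 arrays (circles), from 0.89 above the base in PPP1R15A to 4.33 in EDN1.

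Transcripts of proteins that switch EDN1 on or off changed in both directions. Of 31 such regulators, all measured, 8 rose and 7 fell, while 16 missed the threshold. Their median difference was -0.01 against -0.02 over all genes (12.6% of all genes rose and 14.0% fell). The NF-kappa-B subunit genes REL (0.72 ± 0.08, SE, limma adjusted p = 0.00052) and NFKB2 (0.44 ± 0.06, adjusted p = 0.00105) rose, and so did the AP-1 gene FOS (0.65 ± 0.09, adjusted p = 0.00112). SMAD3, a transducer of TGF-beta signals, fell by 0.55 (adjusted p = 0.000444). REL stood at 7.66, 7.81 and 7.50 in control replicates 1, 2 and 3, and at 8.36, 8.32 and 8.45 with miR-205. NFKB2 stood at 9.12, 9.13 and 9.16 in the controls, with no step in control replicate 2, and at 9.66, 9.54 and 9.54 with miR-205. Leaving out miR-205 replicate 1, 2 or 3 or control replicate 1 left 5 regulators higher in each case. The count of lower regulators was 5 or 6 when any 1 array was left out. With all probe sets tested, 5 regulators were higher and 5 lower.

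Other regulators, named after their values were seen, were also higher in control replicate 2 than in the other controls. JUNB read 12.17, 12.26 and 12.20 with miR-205 and 10.27, 11.88 and 10.09 in the controls. NFKBIA, the inhibitor that NF-kappa-B induces, read 13.44, 13.55 and 13.51 with miR-205 and 11.55, 13.38 and 11.56 in the controls. GATA2 (difference -0.01) and HIF1A (0.08), whose proteins act at motifs found in the EDN1 promoter, did not pass (limma adjusted p = 0.889 and 0.329). Other genes of these inputs did. GATA2, HIF1A, EPAS1 and ARNT were also named after their values were seen. The hypoxia factor gene EPAS1 fell by 0.22 (limma adjusted p = 0.0301), while ARNT did not pass (0.01, adjusted p = 0.906). Of the AP-1 genes, FOS, FOSB, JUNB and JUND rose, FOSL2 fell, and JUN and FOSL1 did not pass.

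Among genes of proteins that bind AU-rich mRNAs, the class to which EDN1 mRNA belongs, 2 of 11 rose and 2 fell, where 12.6% of all genes rose and 14.0% fell. The median was -0.01. ZFP36, which promotes the decay of such mRNAs, rose by 2.10 ± 0.54 (SE, limma adjusted p = 0.0205). It read 9.59, 12.05 and 9.78 in control replicates 1, 2 and 3 and 12.61, 12.57 and 12.52 with miR-205. Control replicate 2 was thus higher than the other controls by 2.36, and a gap of 0.52 remained to the miR-205 mean. Its call was lost when any 1 array other than control replicate 2 was left out, which left 1 gene of the list higher. The ZFP36 call was also lost with a robust variance with a trend and with all probe sets tested. Without control replicate 2 its difference was 2.89. ELAVL1, which stabilises such mRNAs, fell by 0.39 (adjusted p = 0.00241), ZFP36L2 fell by 0.30 (adjusted p = 0.00686), and TIA1 rose by 0.31 (adjusted p = 0.00692).

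Of 13 listed proteases that mature or clear endothelins 11 were measured, of which 0 rose and 1 fell in the limma fit, where 12.6% of all genes rose and 14.0% fell. At an unadjusted p under 0.05, 1 was higher and 2 were lower. The median was -0.07 and the range -0.23 to 0.15. FURIN, the protease that makes the first cut in the precursor, fell by 0.23 (8.51 ± 0.04 against 8.74 ± 0.08, SD, n = 3 each, limma adjusted p = 0.0313). Leaving out any 1 array other than control replicate 1 ended that call, and so did testing all probe sets. Without control replicate 2 the count of lower genes in this list was 3.

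Receptor coupling genes that passed were mostly lower with miR-205. Of 34 genes 33 were measured, of which 3 rose and 10 fell, while 20 missed the threshold. The median was -0.06 (12.6% of all genes rose and 14.0% fell). The protein kinase C genes PRKCA (-0.74 ± 0.07, SE, limma adjusted p = 0.000146) and PRKCE (-0.72 ± 0.08, adjusted p = 0.000347) fell most. PRKCA read 10.31, 10.33 and 10.35 with miR-205 and 10.96, 11.09 and 11.16 with the control. ROCK2, a kinase that promotes actomyosin contraction, fell by 0.47 (adjusted p = 0.000922). GNA13, a G protein alpha subunit, fell by 0.45 (adjusted p = 0.00148).

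GNAQ and GNA11, which encode the G protein subunits through which ETA and ETB raise calcium, had differences of 0.44 (limma adjusted p = 0.0545) and 0.07 (adjusted p = 0.417) and did not pass. GNAQ read 7.68, 8.10 and 7.43 in control replicates 1, 2 and 3 and 8.23, 8.13 and 8.15 with miR-205, so that control replicate 2 again lay next to the miR-205 arrays. GNAQ and GNA11 were named after their values were seen. Without control replicate 2, 4 genes of this list rose and 12 fell.

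**Figure D3:**
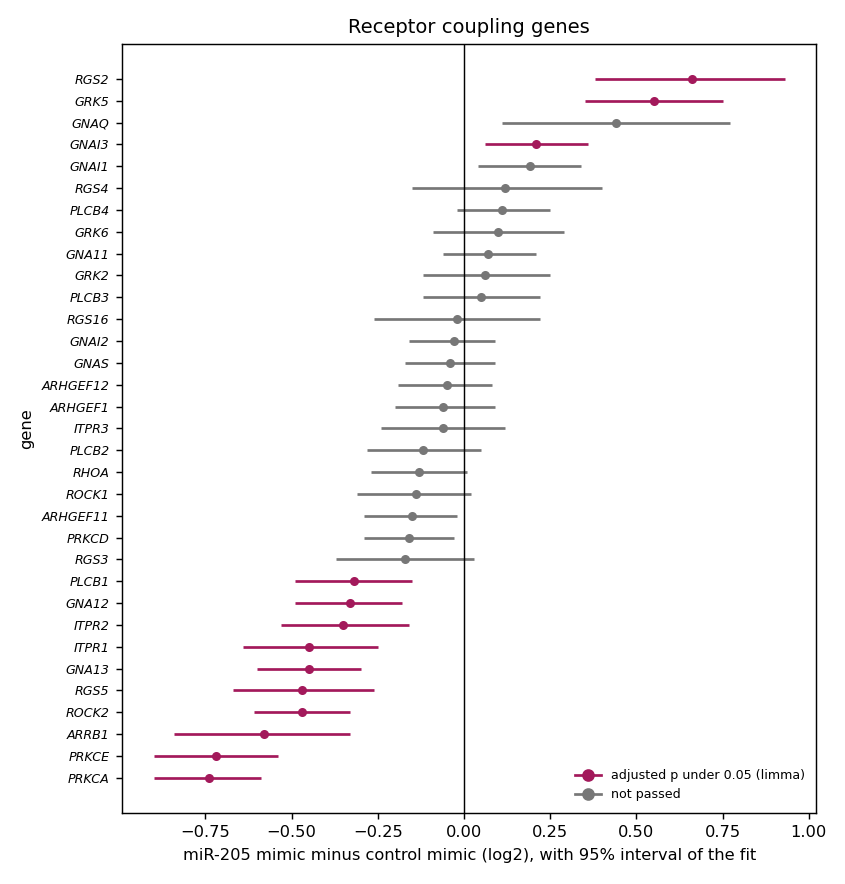
Difference between miR-205 and control mimic (log2) for the 33 measured receptor coupling genes, with the 95% interval of the limma fit; colour marks the genes past an adjusted p of 0.05. The 10 genes that fell reach from PLCB1 (-0.32) to PRKCA (-0.74), and the 3 that rose are GNAI3 (0.21), GRK5 (0.55) and RGS2 (0.66).

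Of 20 listed genes reported elsewhere to respond to endothelin-1, 19 were measured, of which 6 rose and 1 fell, while 12 missed the threshold. The median was 0.57 against -0.02 over all genes, of which 12.6% rose and 14.0% fell. Many of them also respond to other inflammatory and growth signals. EGR1, an immediate-early transcription factor, rose by 2.40 ± 0.23 (SE, limma adjusted p = 0.000192), from 7.57, 8.57 and 7.87 in control replicates 1, 2 and 3 to 10.13, 10.48 and 10.61. ATF3 rose by 1.30 (adjusted p = 0.0111), from 6.60, 7.58 and 6.16 in control replicates 1 to 3, and its call was lost with a robust variance with a trend (adjusted p = 0.0773). CCL2 rose by 0.57 (adjusted p = 0.0168), but its call was lost without miR-205 replicate 1 or 3 or control replicate 3.

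IL6, named after its values were seen, was the 1 gene with a larger step in control replicate 2 than EDN1. It read 5.28, 11.10 and 5.08 in the controls and 10.30, 10.52 and 10.46 with miR-205, so that control replicate 2 exceeded the miR-205 arrays and IL6 did not pass (limma adjusted p = 0.108). Without control replicate 2 the count of higher genes in this list was 13, and without miR-205 replicate 1 or 3 or control replicate 3 it was 3.

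Of 35 listed genes of other vasoactive peptides and their receptors, 34 were measured and 15 lay above 6.04. Of the 34, 1 rose and 2 fell, where 12.6% of all genes rose and 14.0% fell, and the median was -0.04. The bradykinin receptor genes BDKRB2 (-0.54, limma adjusted p = 0.000758) and BDKRB1 (-0.66, adjusted p = 0.00871) fell. RAMP1, a partner of the calcitonin receptor-like receptor, rose by 0.41 (adjusted p = 0.003). ADM, which encodes the vasodilator adrenomedullin and was named after its values were seen, read 8.78, 10.22 and 8.65 in control replicates 1, 2 and 3 and 9.78, 9.81 and 9.81 with miR-205. It did not pass (limma adjusted p = 0.262). Without control replicate 2, 2 genes of this list rose and 4 fell.

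**Figure D4:**
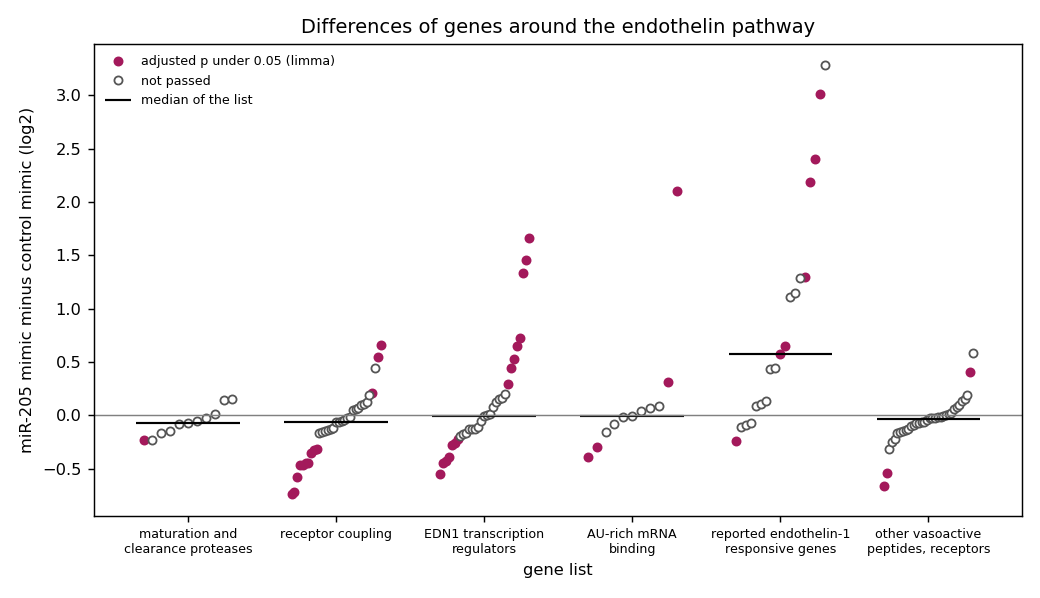
Difference between miR-205 and control mimic (log2) for each measured gene of the 6 pathway lists, ordered by size within a list; filled points passed an adjusted p of 0.05 by limma and black lines are list medians. The median of the reported endothelin-1 responsive genes is 0.57, and those of the other 5 lists lie between -0.07 and -0.01.

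Of 32 measured markers of endothelium, smooth muscle, leukocytes and fibroblasts, 16 lay above 6.04. Among the 9 endothelial markers these were 4, including KDR, PECAM1 and CLDN5, while the defining markers CDH5, VWF and TEK lay below it on average. PECAM1 (-0.98, limma adjusted p = 0.000227) and KDR (-0.94, adjusted p = 0.00184) fell, and 0 of the 9 rose (also 0 at an unadjusted p under 0.05), where 12.6% of all genes rose and 14.0% fell. The mean over the 9 markers was 6.05 to 6.10 with miR-205 and 6.29 to 6.36 with the control, control replicate 2 included. Most of that gap comes from PECAM1 and KDR, and the median difference of the 9 was -0.01. The part of these markers in the EDN1 result was not tested. Of 7 smooth muscle markers 1 rose (CNN1, 0.25) and 1 fell (SMTN, -0.45). Of 8 leukocyte markers 0 passed in the limma fit (1 was lower at an unadjusted p under 0.05). Of 8 fibroblast markers 1 rose (LUM, 0.36) and 1 fell (PDGFRA, -0.31). LUM lay far below 6.04 in all arrays, CNN1 and PDGFRA lay close to it, and SMTN lay far above it.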

How the data were processed

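RNA from AGO2 immunoprecipitates of PC3 cells was read on 6 arrays. The values are log2 intensities that the authors deposited after RMA; per the submitters' processing notes the software was Affymetrix Expression Console 1.1.2, and the array library file and genome build are not given in the sources used here. They were used as deposited. Of 33297 probe sets, 19460 carried 1 gene symbol in the platform annotation, and 1754 with several were not named. The probe set with the highest mean over the 6 arrays stood for each gene, which left 18417 genes. The comparison of groups was a two-sided limma fit (version 3.58.1, R 4.3.3; lmFit, then eBayes, with group as the single term), and the steps were tested on simulated data. Array medians were 6.82 to 6.86, and the number of arrays limits precision.

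Members, lists, rules and alternatives were chosen with earlier results of these data known. Named by rule were the members, up to 4 passing genes per list with the smallest p, the 8 genes most like EDN1 and the highest gene of a marker list. All other genes in the text and captions were named with their values known, whether or not they are marked so. Alternatives covered normalization, filters, probe set summaries, variance models, array weights, a replicate block and leaving out arrays. Of the listed genes, those without a single-gene probe set were not analysed here. Sequences are from RefSeq (GRCh38.p14); EDN1 and the 8 genes like it were all matched there.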

Additional observations from a re-analysis of the deposited data

How the results depend on the processing

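EDN1 kept its direction under all 14 alternatives, with differences of 2.39 to 4.70 when 1 array was left out. In the fit that chose it, its place past the threshold was lost without any 1 array other than control replicate 2 (limma adjusted p = 0.0921 to 0.143), with a robust variance with a trend (3.26, adjusted p = 0.189) and with all probe sets tested (3.26, adjusted p = 0.106). Array weights gave 3.74 (limma adjusted p = 0.00637), with a weight of 0.532 for control replicate 2 and 0.909 to 1.81 for the others. These weights count least the control array in which EDN1 was high. No adjusted p of EDN1 given here is a test of it, since the same contrast chose the gene. ECE1 passed under all 14 alternatives (adjusted p = 4.36e-06 to 0.00213), and EDN2, EDN3 and EDNRB under none of those run (EDNRB could not be run with dim genes filtered out). With control replicate 1 or 3 alone as the base, control replicate 2 covered 0.926 or 0.916 of the distance to the miR-205 mean of EDN1. Genes of the 6 pathway lists that rose numbered 19, with 11 to 29 when 1 array was left out, the most without control replicate 2, and 11 with all probe sets tested. Those that fell numbered 23, with 18 to 27 when 1 array was left out. Deviations of same-numbered arrays from their group means correlated by 0.0626, 0.0912 and 0.0103 over genes. Each miR-205 array correlated best with the control of its own number, as did control replicates 1 and 2. Control replicate 3 correlated more with miR-205 replicate 1 (0.0496). The numbers were not taken to pair samples, though these small values do not exclude pairing. With the replicate block, 22 list genes rose and 23 fell (2204 and 2423 of all genes, against 2320 and 2586), EDN1 had an adjusted p of 0.0229 and ECE1 of 0.00145, and the replicate block changed no call of a member. Over all genes, 1588 to 2668 rose and 1777 to 2881 fell when 1 array was left out. The cause of these shifts was not tested. Signals near 6.04, as for EDN1 in control replicates 1 and 3, limit how exactly a large ratio can be known.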
